A study of Mus musculus with 16 samples.

Results

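The genes described here are insulin-like growth factor 1 (Igf1), its receptor (Igf1r) and 6 of the secreted IGF binding proteins (Igfbp2, Igfbp3, Igfbp4, Igfbp5, Igfbp6 and Igfbp7), 8 genes of the 49452 listed. They were read in RNA from tdTomato-positive lung cells of 16 mice, 4 in each of 4 groups. The genes were taken by name, and the set was chosen by the measured values of these same mice, after the 4 groups had been compared with each other. Differences of the 8 genes between groups are therefore described, with no p-value printed for them. Whether 1 of the 8 passed a threshold is given as a description too. All 8 genes were found, each as 1 gene identifier.

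IGF1 is a secreted growth factor made by mesenchymal cells and macrophages as well as by liver. It acts through the receptor tyrosine kinase IGF1R, which passes the signal on through insulin receptor substrates to the PI3K-AKT and RAS-MAPK arms. IGF binding proteins hold IGF1 and IGF2 outside the cell, prolong their life and limit or direct their access to the receptor, and proteases such as PAPP-A release the growth factors by cutting them. IGFBP7, also called IGFBP-rP1 or angiomodulin, binds IGFs weakly and is a matrix-associated protein of vessels and stroma. IGF signalling and several of the binding proteins are known in lung fibrosis, where fibroblasts and myofibroblasts lay down matrix.

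In the Acta2-tdT line (Acta2-CreERT2; tdTomatoflox), an inducible Cre under the Acta2 promoter switches on tdTomato in cells that use the smooth muscle actin gene while tamoxifen is given. In the Pdgfra-tdT line (Pdgfra-CreERT2; tdTomatoflox) the Pdgfra promoter drives the inducible Cre. Tamoxifen was fed at 400 mg/kg to the Acta2-tdT mice, starting on day 5 after instillation, whereas the Pdgfra-tdT mice had 5 injections of 3 mg at 6 weeks of age, so the lines differ in the timing and route of tamoxifen as well as in the promoter. All mice carried the tdTomato reporter, were about 11 weeks of age, and gave lungs 14 days after saline or bleomycin, a drug that injures the lung and is followed by fibrosis. Saline mice carry the numbers 1 to 4 and bleomycin mice the numbers 5 to 8 in each line.

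Values are FPKM, fragments per length of transcript and per number of mapped fragments, so levels of different genes can be set side by side. The files give no read counts, so the depth behind a value is unknown. The summed FPKM of nuclear protein-coding genes was 35602 to 57788 in Acta2-tdT saline mice, 231058 to 463127 in Acta2-tdT bleomycin mice, 29964 to 59840 in Pdgfra-tdT saline mice and 28512 to 137952 in Pdgfra-tdT bleomycin mice. The sum was thus higher in each Acta2-tdT bleomycin mouse than in any other mouse, and each value is given as deposited and, where it matters, as scaled FPKM, which sets that sum to the same number in every mouse. As a gauge of levels that carry no information, the 95th percentile over 1747 olfactory and vomeronasal receptor genes, which lung cells do not use, lay between 0.514 and 3.9 FPKM in the 16 mice. It differed by group, at 0.514 to 2.07 FPKM in Acta2-tdT bleomycin mice and 2.36 to 3.9 FPKM in the other mice. Tissue was sorted in bulk, so fewer cells of a type and less RNA per cell cannot be told apart.

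The labels were checked against defining genes. Acta2 itself was 139 to 314 FPKM in Acta2-tdT saline mice and 1229 to 3211 FPKM in Acta2-tdT bleomycin mice, against 0.831 to 19.4 FPKM in the 8 Pdgfra-tdT mice. Pdgfra was only 2.14 to 3.82 FPKM in Pdgfra-tdT saline mice and 0.977 to 2.45 FPKM in Pdgfra-tdT bleomycin mice, and the fibroblast marker Tcf21 was at 0 in all 4 of the latter. In Acta2-tdT mice Pdgfra was 0.273 to 0.562 FPKM after saline and 2.49 to 11.9 FPKM after bleomycin, so after bleomycin it was higher in all 4 Acta2-tdT mice than in any Pdgfra-tdT mouse on FPKM (1.60 ± 0.47, limma adjusted p = 0.0089), against the line's label, and on scaled values the lines overlapped (-0.33 ± 0.27, adjusted p = 0.36). Pdgfra-tdT saline mouse 3 and Pdgfra-tdT bleomycin mouse 5 stood apart, with summed endothelial markers (8 genes) of 544 and 1273 FPKM against 5.54 to 138 FPKM in the other 6 mice of that line. Where a result rests on these mice, this is said beside it.

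The 8 genes lie on 6 chromosomes in the GRCm38 annotation (GENCODE M21). Igf1 is on the plus strand of chr10:87858265-87937042 with 8 merged exons, and an antisense gene, Igf1os, lies across it without sharing exon bases. Igf1r is on the plus strand of chr7:67952827-68233668. Igfbp2 (chr1:72824503-72852474, plus strand) and Igfbp5 (chr1:72857932-72874884, minus strand) are neighbours that end towards each other, 5457 bases apart. Igfbp3 (chr11:7206086-7213923, minus strand) stands in the same way beside Igfbp1, at 3539 bases. Igfbp4 is at chr11:99041244-99054392 on the plus strand, Igfbp6 at chr15:102144362-102149511 on the plus strand and Igfbp7 at chr5:77349240-77408041 on the minus strand. Igfbp7 shares 85 exon bases with Polr2b on the opposite strand, whose highest FPKM in any mouse was 8.17, below the Igfbp7 level of every Acta2-tdT mouse. The libraries do not keep strand, so reads from the shared bases cannot be told apart.

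The sequence before the start site is shown for the 4 genes on which the results turn, the ligand, the neighbours Igfbp2 and Igfbp5, which moved differently, and Igfbp7, the most abundant. Each run is the 250 bases before a RefSeq start site (GRCm38.p6), 5′ to 3′ on the gene's own strand, and capitals mark any of 4 short motifs searched on both strands. The TATA box was searched as TATAAA. The site of AP-1 factors was searched as TGANTCA. For the GC box the letters were GGGCGG. For the SMAD box, which SMAD factors of the TGF-beta pathway bind, they were CAGAC, and no match overlapped another in these windows.
Igf1, chr10:87860861-87861110, plus strand: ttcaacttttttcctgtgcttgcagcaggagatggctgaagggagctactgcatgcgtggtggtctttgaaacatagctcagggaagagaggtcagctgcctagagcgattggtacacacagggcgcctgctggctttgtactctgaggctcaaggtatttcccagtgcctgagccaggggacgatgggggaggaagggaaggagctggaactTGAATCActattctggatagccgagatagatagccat
Igfbp2, chr1:72824230-72824479, plus strand: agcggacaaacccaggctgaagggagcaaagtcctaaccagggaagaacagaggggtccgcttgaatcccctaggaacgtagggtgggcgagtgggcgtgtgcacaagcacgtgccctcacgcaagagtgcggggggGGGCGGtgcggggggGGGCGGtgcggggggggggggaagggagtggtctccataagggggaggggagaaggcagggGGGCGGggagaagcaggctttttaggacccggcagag
Igfbp5, chr1:72874866-72875115, minus strand: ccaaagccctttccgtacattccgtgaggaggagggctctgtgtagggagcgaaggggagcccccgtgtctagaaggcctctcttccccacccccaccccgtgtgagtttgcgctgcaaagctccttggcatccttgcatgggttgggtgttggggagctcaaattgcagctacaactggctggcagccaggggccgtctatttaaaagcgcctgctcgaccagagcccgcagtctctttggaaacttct
Igfbp7, chr5:77408046-77408295, minus strand: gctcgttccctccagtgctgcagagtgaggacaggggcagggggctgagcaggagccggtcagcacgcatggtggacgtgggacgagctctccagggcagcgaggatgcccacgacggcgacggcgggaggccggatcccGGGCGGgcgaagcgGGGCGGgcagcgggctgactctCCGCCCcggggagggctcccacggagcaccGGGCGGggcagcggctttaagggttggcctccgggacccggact
The Igf1 run held 1 AP-1 motif, the Igfbp2 run 3 GC boxes and the Igfbp7 run 4, and the Igfbp5 run held none of the 4 motifs. Of all 32851 RefSeq windows of the same length, 12.4% held a TATA box, 6.75% an AP-1 site, 32.7% a GC box and 42.2% a SMAD box by these letters. The neighbours also differed in base composition, with 67.2% G and C before Igfbp2 and 58.8% before Igfbp5, against a median of 52.4% over all windows. All 8 genes had such a window. Igfbp2 has a second start site, whose window (chr1:72825137-72825386) held 1 AP-1 motif and 1 SMAD box. Each TATA box match among the 9 windows of the 8 genes was in Igfbp4 or Igfbp6. A match describes letters, not binding.

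Igf1, the ligand, was low in saline mice of either line and high in Acta2-tdT bleomycin mice. It was 2.17, 1.93, 2.35 and 3.26 FPKM in Acta2-tdT saline mice 1 to 4, and 1 of these 4 values was above the 95th percentile of the receptor genes in its own mouse. In Acta2-tdT bleomycin mice 5 to 8 it was 59.2, 67.0, 120 and 125 FPKM. The groups did not overlap, and the lowest bleomycin mouse was far above the highest saline mouse. The log2 difference was 4.71 ± 0.37 (SE, 4 mice against 4), on log2(FPKM + 1) as for all FPKM differences below. On scaled values it was 1.87 ± 0.21, the scaled levels being 2.38 to 2.90 in saline and 9.15 to 14.3 in bleomycin mice, again with no overlap.

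Igf1 in the Pdgfra-tdT line was 1.64, 1.27, 1.09 and 1.53 FPKM after saline and 5.54, 5.31, 4.17 and 1.76 FPKM after bleomycin. All 4 bleomycin mice were above all 4 saline mice on FPKM, but on scaled values, 0.896 to 2.69 against 1.97 to 5.25, the groups overlapped. The log2 difference was 1.05 ± 0.37 on FPKM and 0.68 ± 0.50 on scaled values, and neither was called. Here a gene is called when the adjusted p of limma, fitted over all genes that passed a filter on low values, is under 0.05. Between lines after bleomycin, Igf1 was higher in all 4 Acta2-tdT mice, by 4.17 ± 0.66 on FPKM and 1.55 ± 0.42 on scaled values.

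Macrophages also make Igf1, and on FPKM their summed markers were higher after bleomycin in either line. The summed FPKM of 12 macrophage markers was 70.8 to 440 in Acta2-tdT saline mice and 2278 to 9973 in Acta2-tdT bleomycin mice, and 42.3 to 90.1 against 383 to 3240 in the Pdgfra-tdT line. On scaled values the sums were 97.7 to 374 and 352 to 1124 in Acta2-tdT mice, and 660 to 1828 in Pdgfra-tdT bleomycin mice. Single genes of the list went in different directions between lines after bleomycin on scaled values. Csf1r (1.72 ± 0.46, limma adjusted p = 0.018) and C1qc (2.46 ± 0.84, adjusted p = 0.045) were higher in all 4 Acta2-tdT mice, as Igf1 was, and Lyz2 (-1.86 ± 0.65, adjusted p = 0.048), which makes up much of the sum, was lower in all 4. The other 8 genes of the list that were tested did not pass the test on scaled values. The part of these cells in the level of Igf1 was not tested.

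**Figure D1:**
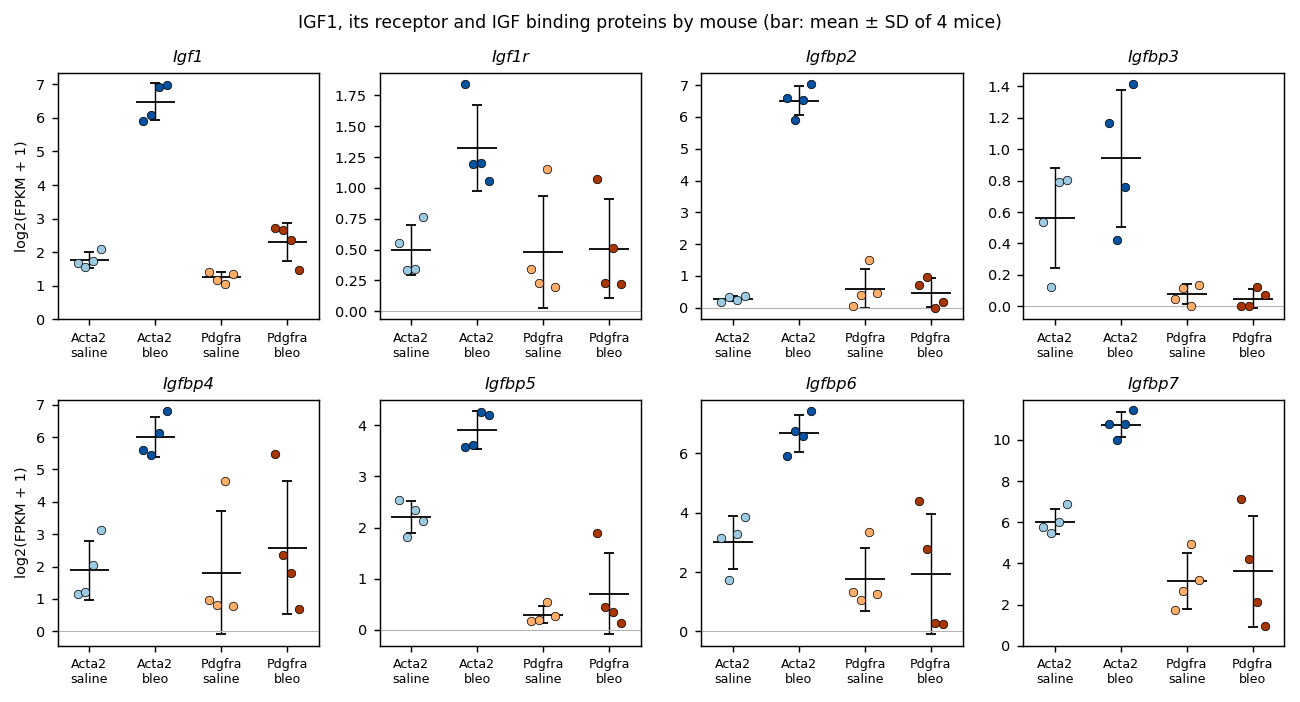
Level of each of the 8 genes in each mouse as log2(FPKM + 1), in Acta2-tdT (blue) and Pdgfra-tdT (orange) mice after saline (light) or bleomycin (dark). Points are single mice in number order, the bar is the mean and the whisker the SD of 4 mice. All genes but Igfbp3 are higher in all 4 Acta2-tdT bleomycin mice than in any Acta2-tdT saline mouse, and Pdgfra-tdT saline mouse 3 and bleomycin mouse 5 lie highest in their groups for Igf1r, Igfbp4, Igfbp6 and Igfbp7.

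Igf1r, the receptor, was low in every group. Its level passed the receptor gene gauge in 3 of 4 Acta2-tdT bleomycin mice, where the gauge itself was lowest, and in 0 of 4 mice of each other group. It was 0.463, 0.262, 0.269 and 0.699 FPKM in Acta2-tdT saline mice and 2.58, 1.29, 1.30 and 1.08 FPKM in Acta2-tdT bleomycin mice. In Pdgfra-tdT saline mice 1 to 4 it was 0.267, 0.168, 1.22 and 0.143 FPKM, and in bleomycin mice 5 to 8 it was 1.10, 0.169, 0.425 and 0.164 FPKM. The high value of each Pdgfra-tdT group came from the mouse with high endothelial markers. In the Acta2-tdT line the log2 difference of bleomycin over saline was 0.82 ± 0.21 on FPKM and -0.24 ± 0.11 on scaled values, so its direction turned with the scaling, and the FPKM difference was below the median of 1.76 over all genes tested. Igf1r had an FPKM of at least 1 in 0 of 4 Acta2-tdT saline mice and in 4 of 4 bleomycin mice, so it passed the filter through the bleomycin mice alone.

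Igfbp2, a binding protein with some preference for IGF2 that is also made by alveolar type 1 cells, had the largest difference with bleomycin in the Acta2-tdT line among the 8 genes. It was 0.142, 0.276, 0.175 and 0.304 FPKM in Acta2-tdT saline mice, below the receptor gene gauge in all 4. In Acta2-tdT bleomycin mice 5 to 8 it was 94.8, 59.1, 91.9 and 129 FPKM. It went from the lowest mean of the 8 genes, 0.224 ± 0.078 FPKM (SD, n = 4), to 93.7 ± 28.5 FPKM, the same range as Igf1 at 92.9 ± 34.6 FPKM. The log2 difference was 6.22 ± 0.32, and on scaled values, 0.177 to 0.381 against 10.4 to 14.6, it was 3.46 ± 0.18.

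Igfbp2 in the Pdgfra-tdT line was 0.0436, 0.319, 1.82 and 0.379 FPKM after saline and 0.658, 0.960, 0 and 0.124 FPKM after bleomycin. None of these 8 values was above the receptor gene gauge of its mouse, and the groups overlapped. Between lines after bleomycin Igfbp2 was higher in all 4 Acta2-tdT mice, by 6.04 ± 0.55 on FPKM and 3.39 ± 0.34 on scaled values. Epithelial markers (8 genes) summed to 334 to 1557 FPKM in Acta2-tdT bleomycin mice and 44.6 to 786 FPKM in Acta2-tdT saline mice, and to 37.7 to 240.4 against 61.5 to 795 on scaled values. The type 1 cell marker Ager among them was 12.3 to 28.5 FPKM after bleomycin and 0.144 to 6.23 FPKM after saline, but 1.83 to 6.06 against 0.199 to 5.30 on scaled values. The part of epithelial RNA in Igfbp2 was not tested.

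Igfbp5, the neighbour of Igfbp2 and a matrix-bound binding protein, was 4.83, 2.54, 4.06 and 3.36 FPKM in Acta2-tdT saline mice and 0.124, 0.145, 0.449 and 0.206 FPKM in Pdgfra-tdT saline mice, with no overlap. The log2 difference between lines was 1.91 ± 0.21 on FPKM and 2.0 ± 0.26 on scaled values. Igfbp5 had an FPKM of at least 1 in 4 of 4 Acta2-tdT and 0 of 4 Pdgfra-tdT saline mice, so it entered the test through the Acta2-tdT mice alone and its call there supports nothing. After bleomycin the Acta2-tdT mice had 10.9, 11.2, 18.3 and 17.4 FPKM, and the Pdgfra-tdT mice 2.70, 0.370, 0.272 and 0.0973 FPKM, the highest of the latter again being mouse 5. Igfbp5 thus stayed higher in Acta2-tdT mice after bleomycin, by 3.21 ± 0.48 on FPKM and 1.07 ± 0.25 on scaled values.

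Within the Acta2-tdT line the direction for Igfbp5 turned with the scaling. All 4 bleomycin mice were higher than all 4 saline mice on FPKM, by 1.71 ± 0.31, which is about the median of all genes tested. On scaled values they were all lower, 1.68 to 2.38 against 2.85 to 6.44, by -0.76 ± 0.23. A ratio within a mouse does not depend on the scaling. The FPKM of Igfbp2 per FPKM of Igfbp5 was 0.0295 to 0.109 in the 4 Acta2-tdT saline mice and 5.02 to 8.71 in the 4 bleomycin mice, so the order of these neighbours was opposite in the groups.

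Igfbp7 was the most abundant of the 8 genes in each of the Acta2-tdT mice. It was 52.8, 43.0, 63.6 and 119 FPKM after saline and 1745, 1011, 1773 and 2763 FPKM after bleomycin. The groups did not overlap, and the log2 difference was 4.71 ± 0.45 on FPKM and 1.73 ± 0.30 on scaled values, where the levels were 59.3 to 100.8 and 200 to 293. Pdgfra-tdT mice had 2.27, 5.28, 29.6 and 8.22 FPKM after saline and 139, 17.4, 3.42 and 0.952 FPKM after bleomycin. The spread in that line was wide, mice 3 and 5 were the highest of their groups, and the groups overlapped. In saline mice Igfbp7 was higher in all 4 Acta2-tdT mice, by 2.91 ± 0.71 on FPKM, which was not called, and by 2.75 ± 0.62 on scaled values, which was called. Without Pdgfra-tdT mice 3 and 5, the FPKM difference was 3.51 and was called, as were 24.4% of all genes in that direction.

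Igfbp4, which mostly inhibits IGF action and is a substrate of PAPP-A, was also higher in every Acta2-tdT bleomycin mouse than in any saline mouse of that line. It was 1.23, 1.34, 3.10 and 7.72 FPKM after saline and 47.9, 42.5, 69.2 and 112 FPKM after bleomycin, with no overlap. The log2 difference was 4.12 ± 0.51 on FPKM and 1.33 ± 0.34 on scaled values. Pdgfra-tdT mice had 0.951, 0.758, 24.2 and 0.723 FPKM after saline and 43.3, 4.18, 2.51 and 0.626 FPKM after bleomycin. Mice 3 and 5 were far above the other mice of their groups, and through them the lines overlapped in either treatment. After bleomycin the difference between lines was 3.41 ± 0.96 on FPKM and 0.95 ± 0.60 on scaled values, the latter not called. Without Pdgfra-tdT bleomycin mouse 5 the FPKM difference was 4.37 ± 0.59 and was again called, as were 78.0% of all genes in that direction.

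Igfbp6, which prefers IGF2 over IGF1, was 7.84, 2.34, 8.69 and 13.4 FPKM in Acta2-tdT saline mice and 59.6, 106, 95.3 and 173 FPKM in Acta2-tdT bleomycin mice. These groups did not overlap on FPKM, where the log2 difference was 3.67 ± 0.52. On scaled values they overlapped, at 3.23 to 11.4 against 9.21 to 22.6, and the difference of 0.80 ± 0.42 was not called. In the Pdgfra-tdT line Igfbp6 was 1.53, 1.08, 9.14 and 1.40 FPKM after saline and 19.8, 5.91, 0.215 and 0.177 FPKM after bleomycin. Mice 3 and 5 were again the highest. Between lines after bleomycin Igfbp6 was higher in all 4 Acta2-tdT mice, by 4.75 ± 0.95 on FPKM and 2.31 ± 0.69 on scaled values.

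Igfbp3, the main carrier of IGF1 in serum, did not pass the filter on low values in any comparison. It was 0.449, 0.0887, 0.732 and 0.744 FPKM in Acta2-tdT saline mice and 1.24, 0.343, 0.695 and 1.66 FPKM in Acta2-tdT bleomycin mice, with 1 of these 8 values above the receptor gene gauge. In the 8 Pdgfra-tdT mice it reached at most 0.0999 FPKM. Its level was thus mostly that of genes not in use.

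**Figure D2:**
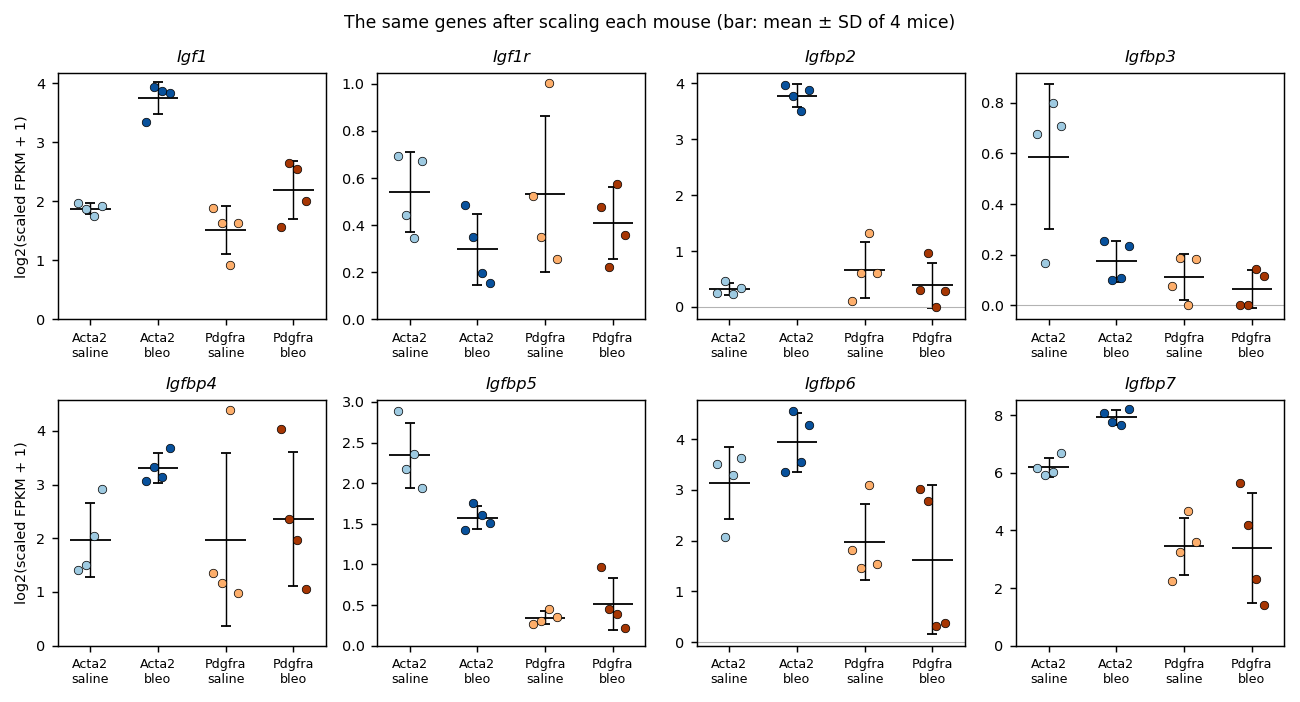
The same 8 genes as log2(scaled FPKM + 1), after the summed FPKM of nuclear protein-coding genes was set to the same number in each mouse. Colours, points, bars and whiskers are as in the plot of unscaled levels. Igf1, Igfbp2, Igfbp4 and Igfbp7 remain higher in all 4 Acta2-tdT bleomycin mice than in the saline mice of that line, Igfbp6 overlaps, and Igfbp5 is lower in all 4.

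The order of mean FPKM changed with bleomycin in the Acta2-tdT line. After saline Igfbp7 (69.5 ± 33.8, SD, n = 4) led, followed by Igfbp6 (8.06 ± 4.51), Igfbp5 (3.70 ± 0.98), Igfbp4 (3.35 ± 3.04) and Igf1 (2.43 ± 0.58), and from Igfbp6 to Igf1 the ranges of neighbours overlapped. Igfbp3, Igf1r and Igfbp2 followed, all under 1. After bleomycin Igfbp7 (1823 ± 719) again led, followed by Igfbp6 (108 ± 47.1), Igfbp2, Igf1 and Igfbp4 (67.8 ± 31.4), and from Igfbp6 to Igfbp4 neighbours again overlapped. Igfbp5 (14.5 ± 3.95) followed at a distance, and Igf1r (1.56 ± 0.69) and Igfbp3 (0.985 ± 0.583) were lowest. In the Pdgfra-tdT line the order after saline was Igfbp7 (11.3 ± 12.4), Igfbp4 (6.65 ± 11.7), Igfbp6 (3.29 ± 3.91) and Igf1 (1.38 ± 0.25), with the other 4 genes under 1. After bleomycin the same 4 genes led at 40.1 ± 66.1, 12.7 ± 20.5, 6.53 ± 9.25 and 4.20 ± 1.73, and neighbours among these 4 overlapped in either order. This order rested on mice 3 and 5. Without mouse 3 the saline means were 5.26 ± 2.97 for Igfbp7, 1.48 ± 0.19 for Igf1, 1.34 ± 0.23 for Igfbp6 and 0.811 ± 0.123 for Igfbp4 (SD, n = 3), so Igf1 came second, Igfbp4 came last of the 4, and Igf1 and Igfbp6 alone overlapped as neighbours. Without mouse 5 the bleomycin means were 7.25 ± 8.85 for Igfbp7, 3.75 ± 1.81 for Igf1, 2.44 ± 1.78 for Igfbp4 and 2.1 ± 3.3 for Igfbp6, and all neighbours overlapped.

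The make-up of the binding protein messages was compared as shares of the summed FPKM of Igfbp2 to Igfbp7, which do not depend on the scaling. The sum was 49.6 to 144 FPKM in Acta2-tdT saline mice and 1231 to 3195 FPKM in Acta2-tdT bleomycin mice. Igfbp7 made up 78.5 to 86.7% of it after saline and 82.2 to 89.1% after bleomycin, and these ranges overlapped. The share of Igfbp2 was 0.211 to 0.557% after saline and 4.03 to 4.84% after bleomycin, whereas that of Igfbp5 was 2.33 to 7.18% and 0.545 to 0.911%. Neither pair of ranges overlapped, and the share was higher after bleomycin for the first gene and lower for the second. The share of Igfbp4 was 1.83 to 5.36% after saline and 2.45 to 3.49% after bleomycin, and that of Igfbp6 4.73 to 11.7% and 3.04 to 8.63%.

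In Pdgfra-tdT mice the sum was smaller, 4.95 to 65.2 FPKM after saline and 2.03 to 205 FPKM after bleomycin, and the shares were spread more widely. Igfbp7 made up 45.4 to 74.5% after saline and 47.0 to 67.6% after bleomycin, below the range of the Acta2-tdT mice in each treatment. Igfbp4 took 6.56 to 37.1% and 14.5 to 38.6% of the sum, above the range of the Acta2-tdT mice in each treatment. These shares include mice in which most of the 6 genes were at the level of the receptor gene gauge. Igf1 per 100 FPKM of summed binding proteins was 2.26 to 3.89 in Acta2-tdT saline mice and 3.02 to 5.87 in Acta2-tdT bleomycin mice, and these ranges overlapped. In Pdgfra-tdT mice it was 1.67 to 33.1 (median 15.3) after saline and 2.70 to 86.9 (median 41.3) after bleomycin, again with overlap and with a far wider spread.

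**Figure D3:**
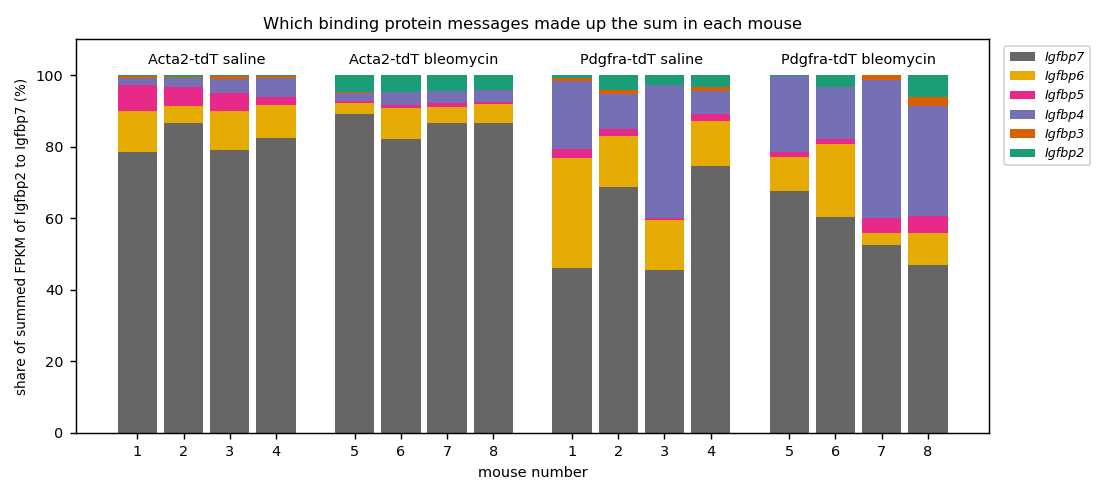
Share of each binding protein gene in the summed FPKM of Igfbp2 to Igfbp7 in each of the 16 mice, in percent, with mouse numbers on the x axis. Igfbp7 (grey) takes 78.5 to 89.1% in the 8 Acta2-tdT mice, the Igfbp2 band (green, top) is 4.03 to 4.84% in the 4 Acta2-tdT bleomycin mice and at most 0.557% in the saline mice of that line, and Igfbp4 (violet) is wider in Pdgfra-tdT mice.

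Counted over the 8 genes, bleomycin over saline in the Acta2-tdT line gave 7 calls, all higher, among the 7 genes that passed the filter on FPKM. Of all 12523 genes tested, 70.4% were called higher, with a median log2 difference of 1.76, and the median over the 7 genes was 4.12. On scaled values 4 of the 7 were called higher (Igf1, Igfbp2, Igfbp4 and Igfbp7) and 1 lower (Igfbp5), beside 23.9% of all genes called higher and 32.6% called lower, and the median was 1.33 against -0.02 over all genes. Igf1r and Igfbp2 had passed the filter through the bleomycin mice alone. In the Pdgfra-tdT line 4 genes passed the filter (Igf1, Igfbp4, Igfbp6 and Igfbp7) and limma called 0 of them at an adjusted p under 0.05 on FPKM or scaled values, beside 0.124% of the 7275 genes tested. Without adjustment 312 of those 7275 genes were under 0.05.

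Between lines in saline mice, 1 of the 5 genes that passed the filter was called higher in Acta2-tdT on FPKM (Igfbp5), beside 2.72% of all genes, and 2 on scaled values (Igfbp5 and Igfbp7), beside 3.2%. Without Pdgfra-tdT mouse 3, which is the saline mouse with endothelial markers, 3 were called on FPKM (Igfbp5, Igfbp6 and Igfbp7), beside 24.4% of all genes called higher, and the same 3 on scaled values, beside 23.5%. The members' count thus went up with the share over all genes. Without any 1 of the Acta2-tdT saline mice, Igfbp5 no longer passed the filter and was not tested. In bleomycin mice Igf1r, Igfbp2 and Igfbp5 passed the filter mainly through the Acta2-tdT mice, where they are high. All 7 that passed were called higher on FPKM, beside 71.0% of all genes, and 5 on scaled values (Igf1, Igfbp2, Igfbp5, Igfbp6 and Igfbp7), beside 15.8% called higher and 17.6% called lower. Without Pdgfra-tdT mouse 5 the counts were 7 on FPKM, beside 78.0% of all genes called higher, and 6 on scaled values, beside 29.7%. Igf1r lost its call on FPKM without Acta2-tdT mouse 5 or without Pdgfra-tdT mouse 6.

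The difference with bleomycin was set side by side between lines as the interaction of line and bleomycin over all 16 mice, which for the 8 genes is a description, since they were chosen on the values of the same 4 groups. The log2 difference with bleomycin was larger in Acta2-tdT than in Pdgfra-tdT mice by 6.36 ± 0.50 for Igfbp2, 4.23 ± 1.51 for Igfbp7, 3.66 ± 0.55 for Igf1 and 3.50 ± 1.21 for Igfbp6 on FPKM. These 4 of the 7 genes that passed were called, beside 36.6% of all genes called higher. Igfbp2 and Igf1r had passed the filter mainly through the Acta2-tdT bleomycin mice, with an FPKM of at least 1 in 4 of 4 of these and in at most 1 of 4 mice of any other group. On scaled values Igfbp2 alone was called, at 3.72 ± 0.39, beside 2.22% of all genes in either direction. Without Pdgfra-tdT mice 3 and 5, 7 were called on FPKM, beside 49.6% of all genes called higher, and 2 on scaled values (Igf1 and Igfbp2), beside 15.7% in either direction. With 1 mouse left out at a time on FPKM, Igfbp6 was called in 10 of 16 fits and Igfbp7 in 6. Igfbp6 lost its call without Acta2-tdT saline mouse 2, Acta2-tdT bleomycin mouse 7 or 8, Pdgfra-tdT saline mouse 3 or Pdgfra-tdT bleomycin mouse 7 or 8. Igfbp7 lost its call without any of these 6 mice, and also without Acta2-tdT saline mouse 1 or 3, Acta2-tdT bleomycin mouse 5 or Pdgfra-tdT saline mouse 4. With a pseudocount of 0.1 or with no filter, neither was called. Igf1 and Igfbp2 kept their calls in these fits, which supports nothing, since the 8 genes were chosen on these values. These comparisons share mice with those within each line and between lines.

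**Figure D4:**
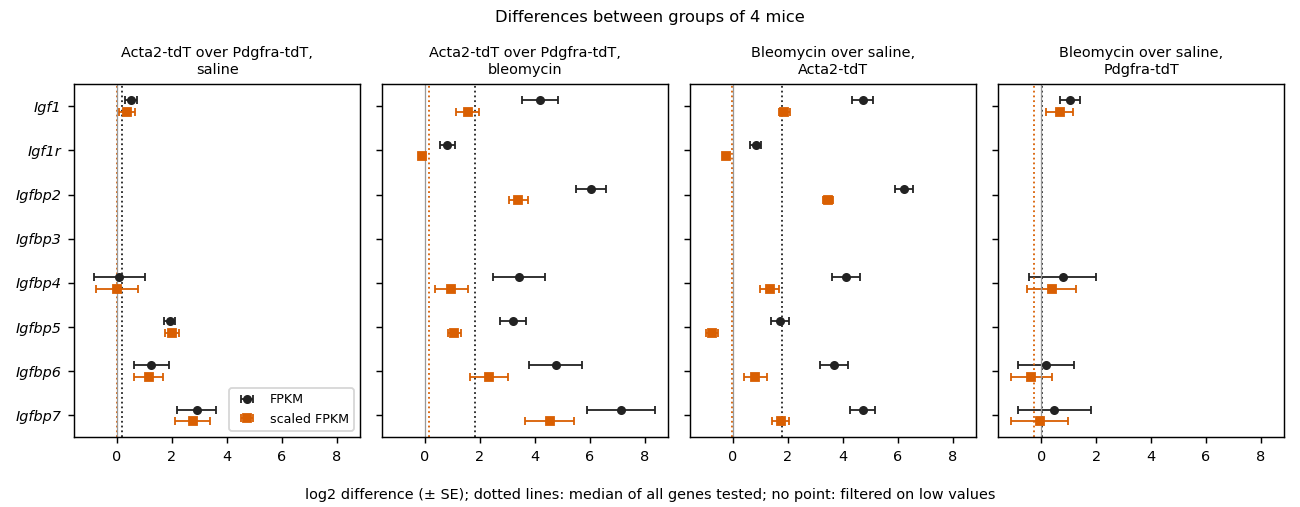
Log2 difference (± SE) of each gene in the 4 comparisons of groups of 4 mice, on FPKM (black circles) and scaled FPKM (orange squares); dotted lines mark the median of all genes tested in the same colour. In bleomycin over saline of the Acta2-tdT line, Igfbp2 lies farthest from the median on either scale (6.22 and 3.46), and Igfbp5 is at the median on FPKM and below it on scaled values (-0.76).

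Markers of other cell types moved between the groups as well. Fibroblast markers (8 genes) summed to 26.1 to 35.8 scaled FPKM in Acta2-tdT saline mice and 222 to 336 in Acta2-tdT bleomycin mice, while smooth muscle markers (8 genes) were 241 to 355 and 331 to 504. The members that stayed higher after scaling in that comparison, Igf1, Igfbp2, Igfbp4 and Igfbp7, were thus higher where fibroblast markers were, and the part of the cell make-up in their levels was not tested. Endothelial markers, which could bear on Igfbp4 and Igfbp7, were 12.9 to 16.5 scaled FPKM in Acta2-tdT saline mice and 4.44 to 7.71 after bleomycin, but on FPKM they were 11.4 to 19.4 and 36.3 to 46.2, so their direction turned with the scaling. Their part in these levels was not tested. Mesothelial markers (5 genes) reached at most 6.01 scaled FPKM in any mouse. Pericyte markers (6 genes) summed to 21.2 to 31.2 and 7.09 to 10.9 scaled FPKM in Acta2-tdT saline and bleomycin mice, and at most 3.8 in Pdgfra-tdT mice. On FPKM this direction turned as well, with 20.9 to 25.0 in Acta2-tdT saline mice and 35.2 to 86.0 in bleomycin mice of that line. A list of other leukocyte markers (8 genes), which holds the neutrophil genes S100a8 and S100a9, summed to 1014 to 1491 scaled FPKM in Acta2-tdT saline mice and 130 to 879 in Acta2-tdT bleomycin mice, while on FPKM it overlapped (738 to 1473 against 1155 to 5692).

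**Figure D5:**
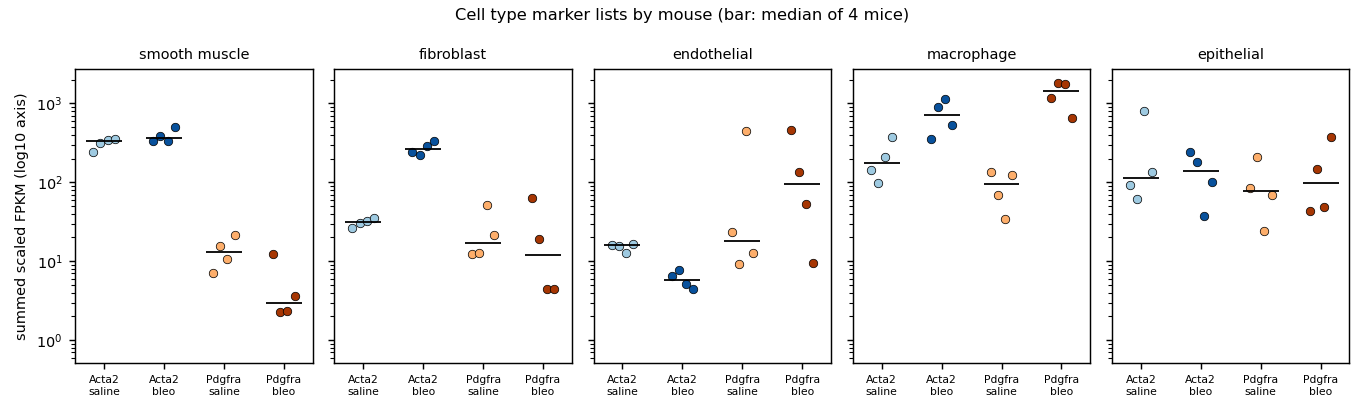
Summed scaled FPKM of 5 marker lists in each mouse on a log10 axis, with the median of 4 mice as a bar. Fibroblast markers are 222 to 336 in Acta2-tdT bleomycin mice and at most 62.9 elsewhere, macrophage markers are higher in all 4 Pdgfra-tdT bleomycin mice than in the saline mice of that line while the Acta2-tdT groups overlap (97.7 to 374 against 352 to 1124), and the endothelial list is highest in Pdgfra-tdT saline mouse 3 and bleomycin mouse 5.

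The rest of the pathway was read from 60 genes in 6 lists, which were set by function and not by how they moved, though with earlier results of these data known. In bleomycin over saline of the Acta2-tdT line, 41 of the 44 that passed the filter rose on FPKM and 0 fell, where 70.4% of all genes were called higher. On scaled values 13 rose and 7 fell, where 23.9% of all genes were called higher and 32.6% lower. Rheb, the GTPase that switches on mTORC1, rose by 4.61 ± 0.51 on FPKM (limma adjusted p = 2.4e-05) and by 1.72 ± 0.34 on scaled values (adjusted p = 0.0021). Map2k2, a MAP kinase kinase of the RAS-MAPK arm, rose by 4.55 ± 0.47 (adjusted p = 1.9e-05) and by 1.69 ± 0.28 (adjusted p = 0.00067). Htra1, a secreted protease that cuts IGFBP5, rose by 3.60 ± 0.38 (adjusted p = 1.9e-05) and by 0.88 ± 0.28 (adjusted p = 0.024). These were the pathway genes with the largest rise on FPKM.

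The pathway genes nearest to the ligand gave a different picture from Igf1. Igf2, the other ligand, was 0.922 to 2.41 FPKM in Acta2-tdT saline mice and 0 to 3.96 FPKM after bleomycin, with a log2 difference of -0.52 ± 0.45 that did not pass the test (adjusted p = 0.29). On scaled values it fell by 1.26 ± 0.17 (adjusted p = 0.00019). All its saline values were below the receptor gene gauge, which was 2.53 to 2.89 FPKM in those mice, so this fall carries little information. The insulin receptor Insr rose by 0.75 ± 0.23 on FPKM (adjusted p = 0.01) and fell by 0.57 ± 0.099 on scaled values (adjusted p = 0.00082), so like Igf1r it turned with the scaling. Pappa, the gene of PAPP-A, rose by 1.63 ± 0.28 on FPKM (adjusted p = 0.00027), close to the median of all genes, and differed by 0.03 ± 0.11 on scaled values (adjusted p = 0.83). It passed the filter through the Acta2-tdT bleomycin mice alone, so its call on FPKM supports nothing. Igf2r, which clears IGF2, was 0.122 to 1.33 FPKM over the 16 mice and was not tested. Igfbp1, a liver binding protein, was at 0 in all 4 Acta2-tdT bleomycin mice and at most 0.181 FPKM elsewhere.

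By list, 4 of 5 tested genes among the other ligands, receptors and binding proteins rose on FPKM in that comparison, and on scaled values 1 rose (Lrp1, 0.69) and 2 fell (Igf2 and Insr). Of the proteases of binding proteins and their inhibitors, 4 of 4 rose on FPKM and 2 on scaled values (Htra1 and Adam12). In the PI3K-AKT arm 18 of 20 rose on FPKM, while on scaled values 6 rose, among them Akt1 (0.88) and Pik3r2 (0.94), and 3 fell, among them Pik3ca (-0.82), a catalytic subunit of PI3K. In the RAS-MAPK arm 10 of 10 rose on FPKM, and 4 rose and 1 fell on scaled values. In the growth hormone arm, which drives Igf1 in liver, 5 of 5 rose on FPKM and 1 fell on scaled values, the growth hormone receptor Ghr (-1.01). These counts stand beside the same shares of all genes. None of the 4 genes of the IGF2 mRNA-binding and H19 list passed the filter.

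In the other comparisons, 38 of 44 pathway genes were higher in Acta2-tdT than in Pdgfra-tdT bleomycin mice on FPKM and 0 lower, beside 71.0% of all genes called higher. On scaled values 12 were higher and 4 lower, beside 15.8% and 17.6% of all genes. Htra1 had the largest difference, 4.86 ± 0.50 on FPKM (adjusted p = 5.0e-05) and 2.37 ± 0.34 on scaled values (adjusted p = 0.0017), followed by Map2k2 (4.62 ± 0.83, adjusted p = 0.00059) and Rheb (4.49 ± 0.93, adjusted p = 0.0013). Pappa was higher by 1.81 ± 0.31 on FPKM (adjusted p = 0.00045) and Insr differed by 0.40 ± 0.46 (adjusted p = 0.42). Pappa passed the filter through the Acta2-tdT mice alone, so its call supports nothing. In saline mice 2 of 12 were higher, beside 2.72% of all genes, Htra1 by 1.49 ± 0.24 (adjusted p = 0.017) and Kazald1, a member of the IGF binding protein superfamily, by 1.005 ± 0.195 (adjusted p = 0.036). On scaled values Htra1 alone passed the test. Both calls were lost on FPKM without Pdgfra-tdT saline mouse 1, 2 or 4 and held without mouse 3, at 1.45 to 1.57 for Htra1 and 0.94 to 1.08 for Kazald1. Without any 1 Acta2-tdT saline mouse neither gene passed the filter. Both thus entered the test through the Acta2-tdT mice alone, and their calls support nothing. With the replicate number as a block 0 of the 12 were called. In the Pdgfra-tdT line limma called 0 of 9 with bleomycin, beside 0.124% of all genes. In the interaction 31 of 45 were called higher on FPKM, beside 36.6% of all genes, and 2 in either direction on scaled values (Pik3r2 and Igf2), beside 2.22%. Igf2 was low, below the receptor gene gauge in all Acta2-tdT saline mice.

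Across the 16 mice, the genes whose scaled levels were most like each member were named by Pearson's r of log2(scaled FPKM + 1) among 9837 protein-coding genes (9838 for Igfbp3, which is not itself among them). These values are a description, since the points share 4 groups and the scaling. For Igfbp2 they were Tnc (0.98), Fbln2 (0.98) and Cthrc1 (0.98), matrix genes of injured tissue. For Igf1 they were Tmem173 (0.95), Tvp23a (0.94) and Nubp1 (0.94), and for Igfbp7 Csrp1 (0.97), Rcn3 (0.97) and Lhfp (0.97). For Igfbp5 they were Timp3 (0.97), Rarres2 (0.96) and Svil (0.95), for Igfbp4 Clic4 (0.97), Snx15 (0.96) and Ppp2r1a (0.96), and for Igfbp6 Maged2 (0.93), Serping1 (0.93) and Ccs (0.93). The low genes Igf1r (Rufy2, 0.96; Ralgapa1, 0.87; Fgfr3, 0.86) and Igfbp3 (Lgi3, 0.94; Pnck, 0.91; Hrct1, 0.90) carried little information. Among the members themselves the closest pair was Igfbp6 and Igfbp7 (0.90), Igf1 was closest to Igfbp2 (0.84), and the neighbours Igfbp2 and Igfbp5 reached 0.20.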

How the data were processed

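tdTomato-positive cells were sorted from dispase-digested left lung lobes into lysis buffer, and libraries were made by SmartSeq2. Per the submitters' processing notes and methods, the authors aligned reads with TopHat2 (2.1.1) and Bowtie2 and estimated expression with Cufflinks (2.1.1). The deposited values are FPKM per gene and mouse with the bounds of their confidence intervals, on GRCm38 coordinates, and no counts were used here, so depth per sample is not known. The bounds show how wide the estimate of a low value is within a mouse (Igfbp2 in Acta2-tdT saline mouse 1 was 0.142 FPKM, with bounds of 0 and 0.323), and the 4 mice per group limit the precision further. Cufflinks divides reads among overlapping gene models, which can shift the values of such genes.

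FPKM rows were summed per gene identifier, and 15 genes with a failed Cufflinks status were left out. A gene was tested if 4 or more of the mice in a comparison had an FPKM of 1 or higher. Tests were run with limma (3.58.1, R 4.3.3) on log2(FPKM + 1), with a mean-variance trend and Benjamini-Hochberg adjustment over all genes tested, and genes were called at an adjusted p under 0.05. Only the 8 mice of a comparison entered its fit, and all 16 entered the interaction. A fold change on this scale understates that of low genes. The procedure was also run on simulated data, with only genes well above 0 and without a shift over most genes. That run does not bear on low genes or on the unlike sums of these mice. The 95th percentile of receptor genes and the scaling to the nuclear protein-coding sum (21950 genes) were computed per mouse. The labels do not say more of the replicates than that each is 1 mouse. No 2 mice had identical values.

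The 8 genes, the gene lists and the alternatives were chosen with earlier results of these data known. Named besides the 8 genes were the 3 called pathway genes with the largest rise and fall in each comparison, 5 fixed genes (Igf2, Insr, Igf2r, Igfbp1 and Pappa), and the 3 genes most like each member. Genes named within a list's count, the markers Acta2, Pdgfra, Tcf21, Ager, Csf1r, C1qc and Lyz2, and Polr2b were chosen after their values were seen. The alternatives were a pseudocount of 0.1, no filter, scaled values, all 16 mice in 1 fit, sample quality weights, each mouse left out, and the mouse number as a replicate block, and for shares Igfbp1 in the sum. Leaving out Pdgfra-tdT mice 3 and 5 was chosen after seeing the data. Promoter sequences are from RefSeq (GRCm38.p6), and loci from GENCODE M21, of the same build as the files. Protein sequences were not used here. Python (3.11.15) drew the figures. Some single genes of the pathway lists are not reported here.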

Additional observations from a re-analysis of the deposited data

Results flagged for a closer look

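In groups of 4 mice, a mouse far from the other 3 by Dixon's test was found in 10 of 56 groups tested (8 genes in 4 groups, and 6 shares in 4 groups). Chance gives about 1 in 20 for independent normal values. The groups tested share mice, and the shares are made from the same FPKM, so the count is a description. The values found in Pdgfra-tdT saline mouse 3 were Igf1r (1.22 FPKM), Igfbp4 (24.2 FPKM) and Igfbp6 (9.14 FPKM), and in Pdgfra-tdT bleomycin mouse 5 Igfbp4 (43.3 FPKM), Igfbp5 (2.70 FPKM) and Igfbp7 (139 FPKM), all high. Both mice also had the highest endothelial markers of their groups, and the part of those cells was not tested. Igf1r was high in Acta2-tdT bleomycin mouse 5 (2.58 FPKM). Among shares of the summed binding proteins, Igfbp2 was high in Acta2-tdT saline mouse 2 (0.557%), Igfbp4 low in Acta2-tdT bleomycin mouse 5 (2.45%) and Igfbp6 high in Pdgfra-tdT saline mouse 1 (30.8%).

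The log2 difference with bleomycin was larger in Acta2-tdT than in Pdgfra-tdT mice, as an interaction called by limma on FPKM, for Igf1 (3.66 on the log2 scale), Igfbp2 (6.36), Igfbp6 (3.50) and Igfbp7 (4.23), and for the pathway genes Map2k2 (3.84), Rheb (3.69), Htra1 (3.37) and Pappa (1.80). For the 4 members this is a description, since they were chosen on the values of the same groups, and Igfbp2 passed the filter mainly through the Acta2-tdT bleomycin mice. With 1 mouse left out at a time, the calls of the pathway genes Map2k2 and Htra1 held in 16 of 16 fits, while that of Rheb held in 10 of 16. Pappa was called in the 12 fits in which it was tested. This supports nothing, since Pappa passed the filter through the Acta2-tdT bleomycin mice alone. Among the members, Igfbp6 was called in 10 of 16 and Igfbp7 in 6 of 16. On scaled values the 3 pathway genes Map2k2, Rheb and Htra1 gave 1.32, 1.24 and 0.82 and Pappa 0.33, none of them past the test, and of the 4 members Igfbp2 alone was called.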

How the results depend on the processing

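Between lines in saline mice, of all genes 237 were called on FPKM, 59 with no filter, 126 with all 16 mice in 1 fit, 2715 with sample quality weights and 2141 without Pdgfra-tdT mice 3 and 5. Members called (1 on FPKM) were 2 on scaled values, 4 with weights, 3 without those mice and 3 without them on scaled values, where 2850 genes were called. Pathway genes called (2) were 1 with a pseudocount of 0.1, 0 with no filter, 1 on scaled values, 1 in the joint fit, 10 with weights and 7 without those mice. Mouse numbers did not pair the mice (correlations from -0.307 to 0.157, best with the own number in 2 of 8), and with the replicate block this comparison gave 36 genes, 0 members and 0 pathway genes.

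Scaled values gave 4012 genes and 16 pathway genes between lines after bleomycin, 7083 and 20 with bleomycin in Acta2-tdT mice, and 369, 1 member and 2 pathway genes in the interaction. With bleomycin in Pdgfra-tdT mice, genes called (9) were 2 with no filter, 15 in the joint fit, 548 with weights and 0 without mice 3 and 5, and weights gave 1 member and 1 pathway gene. The interaction gave 3463 genes, 2 members and 19 pathway genes with a pseudocount of 0.1, 2 members with no filter, 10668 genes and 7 members with weights, 7 members without mice 3 and 5, beside 8826 genes, and 2 without them on scaled values, beside 2468 genes.

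Directions turned on scaled values for Igfbp4 between lines in saline mice (-0.0025), for Igf1r (-0.11) and Insr (-0.64) between lines after bleomycin, for Igf1r (-0.24), Igfbp5 (-0.76) and Insr (-0.57) with bleomycin in Acta2-tdT mice, for Igfbp6 (-0.35) and Igfbp7 (-0.058) in Pdgfra-tdT mice, and for Igf1r (-0.12), Igfbp5 (-0.93) and Insr (-0.92) in the interaction. Igfbp6 in Pdgfra-tdT mice was also -0.34 with a pseudocount of 0.1, and without mice 3 and 5 it was -0.12 and Igfbp7 -0.086. Weights turned Igf2 to 0.12 with bleomycin in Acta2-tdT mice and to 0.044 in the interaction. The cause was not tested.

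Leaving out 1 mouse at a time gave 14 to 2141 genes, 0 to 3 members and 0 to 7 pathway genes between lines in saline mice (0 members with any 1 Acta2-tdT saline mouse left out, where Igfbp5 no longer passed the filter), 6111 to 9952 genes between lines after bleomycin, 6973 to 10143 genes and 25 to 41 pathway genes with bleomycin in Acta2-tdT mice, and 0 to 69 genes in Pdgfra-tdT mice. The interaction gave 3739 to 9166 genes and 2 to 7 members, with 2 members without Acta2-tdT saline mouse 2, Acta2-tdT bleomycin mouse 7 or 8, Pdgfra-tdT saline mouse 3 or Pdgfra-tdT bleomycin mouse 7 or 8, and 7 without Pdgfra-tdT bleomycin mouse 5, beside 9166 genes. Signs turned for Igfbp4 between lines in saline mice (-0.33 to 1.03), Igfbp6 (-0.65 to 0.73) and Igfbp7 (-0.69 to 1.36) in Pdgfra-tdT mice, and Insr in the interaction (-0.18 to 0.56). Median binding protein shares moved by less than 1 SD with Igfbp1 in the sum or with any 1 mouse left out, but in Pdgfra-tdT bleomycin mice, where the SD is wide, 3 of them moved by more than 1.5 times whichever mouse was left out: Igfbp2 (1.83%) to 0.321% without mouse 6 or 8 and 3.34% without mouse 5 or 7, Igfbp5 (2.75%) to 4.19% without mouse 5 or 6 and 1.32% without mouse 7 or 8, and Igfbp3 (0.690%) to 1.38% without mouse 5 or 6 and 0% without mouse 7 or 8. With no counts, depth could not be set against any of these values.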
